A study of Mus musculus with 40 samples.

Results

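Genes of cholesterol synthesis, lipoprotein uptake, esterification and intracellular transport were followed in white adipose tissue of the gonadal pad. RNA of 40 male mice of the inbred strain C57BL/6J had been hybridised to bead arrays, 1 for each animal. The 30 genes were listed by their place in the pathway, but with earlier results of these data known. Where a gene had several probes, the brightest over the 40 arrays stood for it. In the platform annotation 25 of the 30 had a probe, and 23 of these passed a filter on dim probes, out of 9789 genes that passed among 16593 with a probe. Acat2, Mvk, Fdft1, Npc1 and Soat1 were not analysed here. The HH group (n = 10) had high fat (HF) dams and ate HF after weaning. LH animals (n = 10) had low fat (LF) dams and ate HF, HL animals (n = 10) had HF dams and ate LF, and LL animals (n = 10) had LF dams and ate LF. Dams ate their diet from before mating until weaning on day 21, and all offspring were killed at 9 weeks of age after a fast. Coconut oil was the main fat of both diets. The animals came from 12 breeding cages, 6 for each maternal diet, and cage mates are not independent. Comparisons of maternal diets therefore have p-values that overstate the evidence wherever cages differ. For post-weaning diets, both of which 5 cages held, the p-values can err in either direction. A whole pad holds adipocytes and other cells, and fewer cells of a type and less RNA per cell cannot be told apart in these values.

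Cells make cholesterol from acetyl-CoA. The early steps, up to squalene, build isoprenoid units that also serve ubiquinone, dolichol and protein prenylation, while the later, sterol steps close the rings of squalene and trim lanosterol to cholesterol. When membrane sterol is low, SREBP proteins are released from the endoplasmic reticulum, where INSIG proteins otherwise hold them, and switch on most genes of the pathway together with the receptors that take up lipoproteins. White adipocytes make little cholesterol themselves, take much of it from lipoproteins and store it, mostly unesterified, at the surface of their lipid droplet.

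SREBP proteins act on promoters beside NF-Y, which binds CCAAT, and Sp1, which binds GGGCGG, so these motifs and TCACNCCAC, letters of the classic sterol response element, were searched on both strands in the 250 bases before the annotated starts (RefSeq, GRCm38.p6). The stretches of the gene that passed the test and of both sterol genes with the smallest p are shown, each read along the gene in the 5′ to 3′ direction, with the matches on either strand in capitals. They lie at chr13:119690101-119690350 on the plus strand (Hmgcs1), chr10:76531355-76531604 on the plus strand (Lss) and chr5:4104698-4104947 on the minus strand (Cyp51).
Hmgcs1: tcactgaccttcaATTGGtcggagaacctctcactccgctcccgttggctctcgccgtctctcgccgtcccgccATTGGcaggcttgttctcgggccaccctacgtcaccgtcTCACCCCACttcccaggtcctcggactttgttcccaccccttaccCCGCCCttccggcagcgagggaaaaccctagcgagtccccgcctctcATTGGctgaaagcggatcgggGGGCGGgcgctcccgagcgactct
Lss: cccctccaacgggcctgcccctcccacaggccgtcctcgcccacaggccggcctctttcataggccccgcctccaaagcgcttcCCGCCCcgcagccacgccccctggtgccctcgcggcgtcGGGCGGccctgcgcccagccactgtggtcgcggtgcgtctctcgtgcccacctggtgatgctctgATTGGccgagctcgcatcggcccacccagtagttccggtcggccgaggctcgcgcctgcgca
Cyp51: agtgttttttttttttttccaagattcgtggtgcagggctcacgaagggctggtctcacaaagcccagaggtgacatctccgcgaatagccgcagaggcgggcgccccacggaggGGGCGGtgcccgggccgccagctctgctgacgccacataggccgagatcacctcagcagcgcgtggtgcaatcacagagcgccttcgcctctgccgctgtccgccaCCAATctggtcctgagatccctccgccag
Hmgcs1 had TCACNCCAC once, 137 to 129 bases before its start, with 3 copies of CCAAT and 2 of GGGCGG, none of which overlapped. Lss had 1 copy of CCAAT and 2 of GGGCGG, and Cyp51 had 1 copy of each. Of the members that passed, 19 had a promoter in the table. CCAAT stood in 13 of the 16 listed promoters of the synthesis genes (81.2%), against 35% of the 10238 promoters of genes that passed the filter and 33.8% of all 32851. All 13 synthesis genes with a listed promoter had it in at least 1 start. GGGCGG stood in 13 of the same 16 promoters (81.2%), against 55.1% of promoters of genes that passed and 32.7% of all. TCACNCCAC was found in Hmgcs1 only among the 19 members, against 0.967% and 1.05% of promoters. A match is a string of letters and not a measured site.

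Some arrays stood apart, and they matter for the sterol genes. On 5 of the 40 arrays the mean correlation with the others lay below 0.926, and all came from LF fed animals, HL animals 2, 6 and 8 and LL animals 1 and 4. On these low-correlation arrays the marker lists of epididymis and testis had a geometric mean between 1178 and 5715 units, and in 3 of them (HL animals 2 and 6, LL animal 4) it lay above the median of all arrays by over 3 scaled median absolute deviations. HL animal 8 also had intestine markers at 876 units, against a median of 74 in its group. Adipocyte markers were low there: 6 of 7 listed genes passed, and the lowest geometric mean of an animal was 3065 units in HH and 3315 in LH, against 1055 in HL and 1060 in LL. Between 7 and 8 of the 10 sterol genes lay above their median of all 40 arrays on 4 of these 5 arrays, and 3 of 10 did so in LL animal 4. None of the 3 uptake genes did so in HL animals 2 and 8 or in LL animals 1 and 4. HH against LH holds none of these 5 arrays. For comparisons with LF fed animals, values without them are given beside main values that they moved.

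The early steps came first. Hmgcs1, the cytosolic synthase that forms HMG-CoA, gave 3618 units in the lowest HH animal, 5903 at the median and 7150 in the highest. In LH the lowest, median and highest values were 5420, 6822 and 11801 units. In HL they were 3099, 4420 and 9435, and in LL 2980, 4547 and 5399. Every LH animal was above every LL animal, but the margin was narrow (5420 against 5399 units). The share of all probes that separate these groups is not given here. Hmgcs1 rose 1.72-fold in LH over LL, by 0.78 ± 0.13 on the log2 scale (SE, limma, adjusted p = 0.0142). It was the 1 member called there among 23, where 0.218% of all 14248 probes were called and 0.204% were called as higher. Averaged over both maternal diets it rose 1.46-fold with post-weaning HF (0.55 ± 0.11, adjusted p = 0.00167), again as 1 of 23, against 5.39% of all probes called and 4.27% called as higher. Neither call held when cages were reduced to their means (0.80, adjusted p = 0.522, and 0.50, adjusted p = 0.184), and over all alternatives the adjusted p of Hmgcs1 ran between 0.00199 and 0.522 in LH against LL and between 4.69e-07 and 0.184 on average.

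In offspring of HF fed dams the same comparison of Hmgcs1, HH over HL, gave 0.32 ± 0.16 (adjusted p = 0.323). It was 0.48 ± 0.14 without the low-correlation arrays (adjusted p = 0.0996). Hmgcs1 was called in HH over HL with array weights (0.56, adjusted p = 0.00529) and without cage 20, where 4.22% and 0.435% of all probes were called. With cage as a fixed block it was 0.07 (adjusted p = 0.852). HL animal 8 stood far above the other 9 HL animals there, of which the highest had 5024 units. Without the low-correlation arrays the highest of 7 HL animals had 4681 units. Between maternal diets Hmgcs1 was at -0.36 ± 0.14 in HH against LH (adjusted p = 0.307) and at 0.10 ± 0.15 in HL against LL (adjusted p = 1), or -0.09 ± 0.10 without the low-correlation arrays (0.982). Cages differed too: the geometric mean of Hmgcs1 was 10861 units in the LH animals of cage 4 and between 6150 and 7080 in the other 3 cages of LH, against 4034 to 4945 units over the 4 cages of LL. Hmgcs1 no longer passed in LH over LL without cage 4 (0.60, adjusted p = 0.0605), without cage 8 (0.75, 0.117) or without cage 11 (0.80, 0.223). The averaged call held without each cage in turn (0.46 to 0.70, adjusted p between 4.42e-06 and 0.0325).

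**Figure D1:**
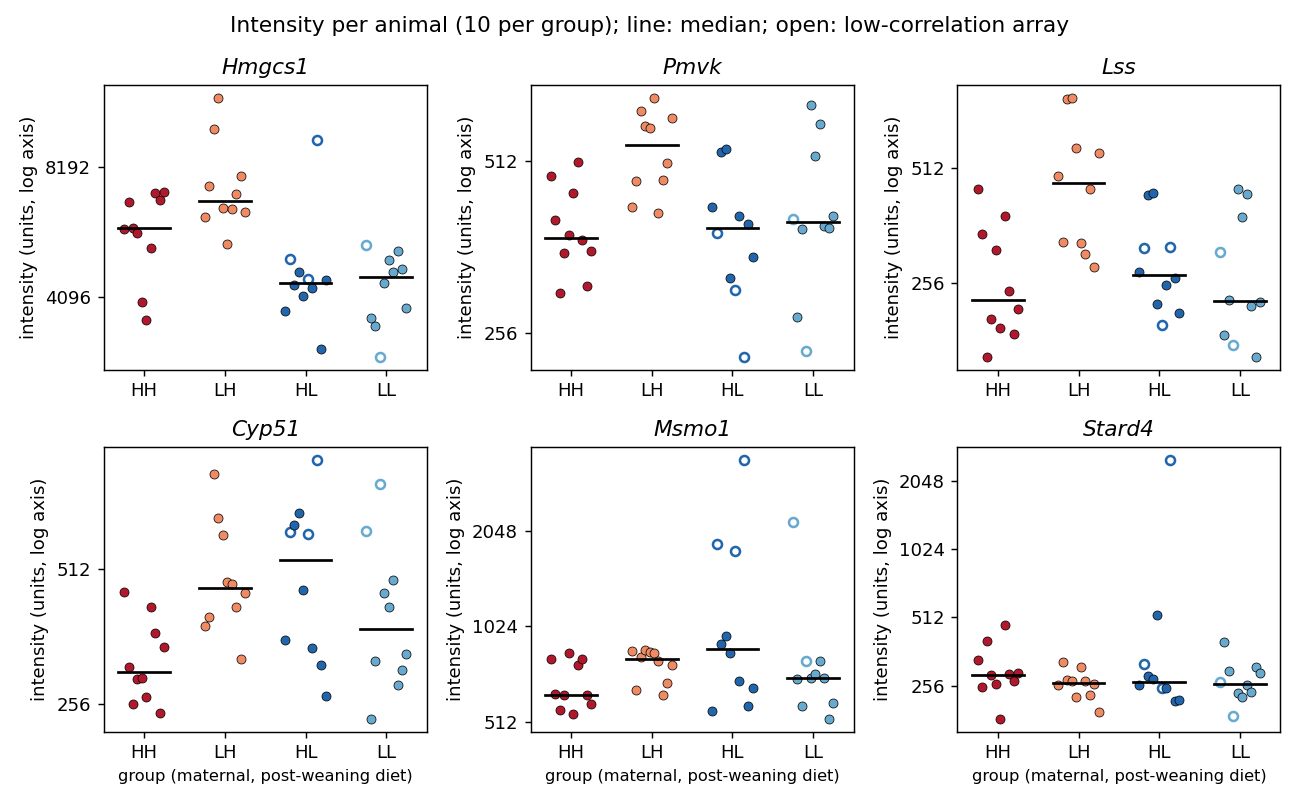
Intensity of 6 members in each animal (units, log axis) by group of 10, with the group median as a line and low-correlation arrays as open symbols. For Hmgcs1 all LH animals (lowest 5420 units) lie above all LL animals (highest 5399), and the open symbols of HL and LL reach highest for Msmo1, while for Stard4 only HL animal 8 does so (2543 units).

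Pmvk, the kinase of phosphomevalonate, had 301 units in the lowest HH animal, 376 at the median and 510 in the highest, against 415, 546 and 661 in LH. All 10 HH animals were below the LH median, but the ranges overlapped. The difference was -0.46 ± 0.11 (1.37-fold lower), the smallest adjusted p of any member in that comparison, 0.108. HL animals had 232, 390 and 537 units as lowest, median and highest, and LL animals 238, 400 and 642, a difference of -0.11 ± 0.18 (adjusted p = 1). Over LL, LH was at 0.38 ± 0.15 (adjusted p = 0.32). Pmvk passed the test in HH against LH with array weights (adjusted p = 0.0471) and without cage 14 (0.0443). In these settings 1.1% and 0.814% of all probes were called. The adjusted p of Pmvk reached 0.788 with cage means, the range over 22 alternatives being 0.0443 to 0.788.

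Fdps, which makes farnesyl diphosphate, spanned 543 to 2702 units in HH with a median of 1209, and 882 to 3248 in LH with a median of 1889. The medians were 1967 in HL and 1342 in LL, and without the low-correlation arrays 1347 in HL and 1131 in LL. The difference of Fdps was -0.70 ± 0.26 in HH against LH (adjusted p = 0.289). In the interaction it was -1.06 ± 0.39, the largest in size of any member there (adjusted p = 0.935), and -0.98 without the low-correlation arrays. Mvd, the decarboxylase that yields isopentenyl diphosphate, was at -0.40 ± 0.16 in HH against LH (adjusted p = 0.313). Idi1, the isomerase of that product, differed from the other early genes, with 0.19 ± 0.31 in HH against LH and -0.12 ± 0.32 in LH against LL (-0.36 ± 0.32 without the low-correlation arrays). Its values in LL alone ran between 88.8 and 447 units. Ggps1, of the branch to geranylgeranyl diphosphate, was above background on 0 of 40 arrays.

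The 10 sterol genes all passed the filter, and 9 of them were above background on all 40 arrays (Dhcr7 on 37). In HH against LH, the effect of maternal diet in HF fed offspring, all 10 were lower, with a median log2 difference of -0.36, between -0.83 and -0.16, while the median of all probes was -0.02. None passed the test (limma, smallest adjusted p = 0.121, Cyp51), and 0% of all probes were called. At an unadjusted p under 0.05 there were 8 of the 10 sterol genes and 4 of the 5 early genes, all 12 lower and together the only such members of the 23, against 12.5% of all probes and 9.72% in that direction. The sterol genes varied together among animals of a group (median Pearson correlation of pairs 0.55 over the 35 arrays without low-correlation ones). The early genes Mvd and Fdps followed Lss at 0.86 and 0.78. Counts of these genes, in this and the other comparisons, are therefore not counts of independent results, and 1 cage can move many of them. Without cage 4 the median of the 10 was -0.21.

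Lss, the cyclase that forms lanosterol, differed most. It had 164 units in the lowest HH animal, 231 at the median and 450 in the highest, against 281, 469 and 782 in LH. All 10 HH animals were below the LH median, and the ranges overlapped. The difference was -0.83 ± 0.22, or 1.78-fold lower (limma, adjusted p = 0.133, 0.0642 to 0.788 over 22 alternatives). By cage its geometric mean in LH was 779 units in cage 4 and 385 to 414 in the others. In HH it was 450 units in cage 10, of 1 animal, and 215 to 286 in the others. In the LF fed groups Lss stood at 198, 268 and 440 units in HL and at 164, 229 and 452 in LL (lowest, median, highest), a difference of 0.12 ± 0.21 (adjusted p = 1). LH was above LL by 0.81 ± 0.23, with 10 of 10 LH animals above the LL median (adjusted p = 0.16), and HH was at -0.15 ± 0.19 against HL (adjusted p = 0.697).

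Cyp51, the demethylase that acts on lanosterol, had 244, 301 and 454 units in HH (lowest, median, highest), against 322, 463 and 832 in LH, a difference of -0.61 ± 0.15 (1.53-fold lower, adjusted p = 0.121). HL animals had 266, 536 and 897 units, and LL animals 237, 375 and 792. HH was below HL by a similar amount, -0.60 ± 0.20 (adjusted p = 0.175), with 10 of 10 HH animals below the HL median. That comparison moved to -0.38 without the low-correlation arrays (adjusted p = 0.446), where the HL median was 355. Cyp51 was called as lower in HH than in HL when cage 12 was left out, where 0.94% of all probes were called. Over the 15 alternatives that kept every cage its adjusted p ran between 0.0586 and 0.446.

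Msmo1, the oxygenase that starts the removal of the remaining methyl groups, had 543, 624 and 846 units in HH and 622, 809 and 865 in LH, a difference of -0.20 ± 0.09 (adjusted p = 0.395). HL reached 3437 units in animal 8, 1859 in animal 2 and 1766 in animal 6, against a group median of 871, and LL reached 2181 in animal 1 against a median of 706. With those arrays HH was at -0.60 ± 0.27 against HL (adjusted p = 0.272), and without them at -0.11 ± 0.13 (adjusted p = 0.807). Without them the highest of 7 HL animals had 958 units and the highest of 8 LL animals 798. Sqle, which oxidises squalene, followed the same arrays. The highest HH animal had 692 units and the highest LH animal 887, against 3426 in HL animal 8 and 1516 in LL animal 1. In HH against LH it was at -0.45 ± 0.18 (adjusted p = 0.324).

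The other 6 sterol genes were lower in HH than in LH as well. Nsdhl, a dehydrogenase of the demethylation steps, was at -0.59 ± 0.23, Hsd17b7, the reductase of the same steps, at -0.35 ± 0.13, and Sc5d, which adds a double bond late in the pathway, at -0.37 ± 0.15. Tm7sf2, a sterol reductase, was at -0.19 ± 0.10, Dhcr7, the reductase of the last step, at -0.17 ± 0.13, and Ebp, a sterol isomerase with a narrow spread, at -0.16 ± 0.06. Their adjusted p lay between 0.284 (Hsd17b7) and 0.587 (Dhcr7). Second probes passed for Sqle and Nsdhl and gave -0.37 ± 0.18 and -0.80 ± 0.22 in the same comparison.

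**Figure D2:**
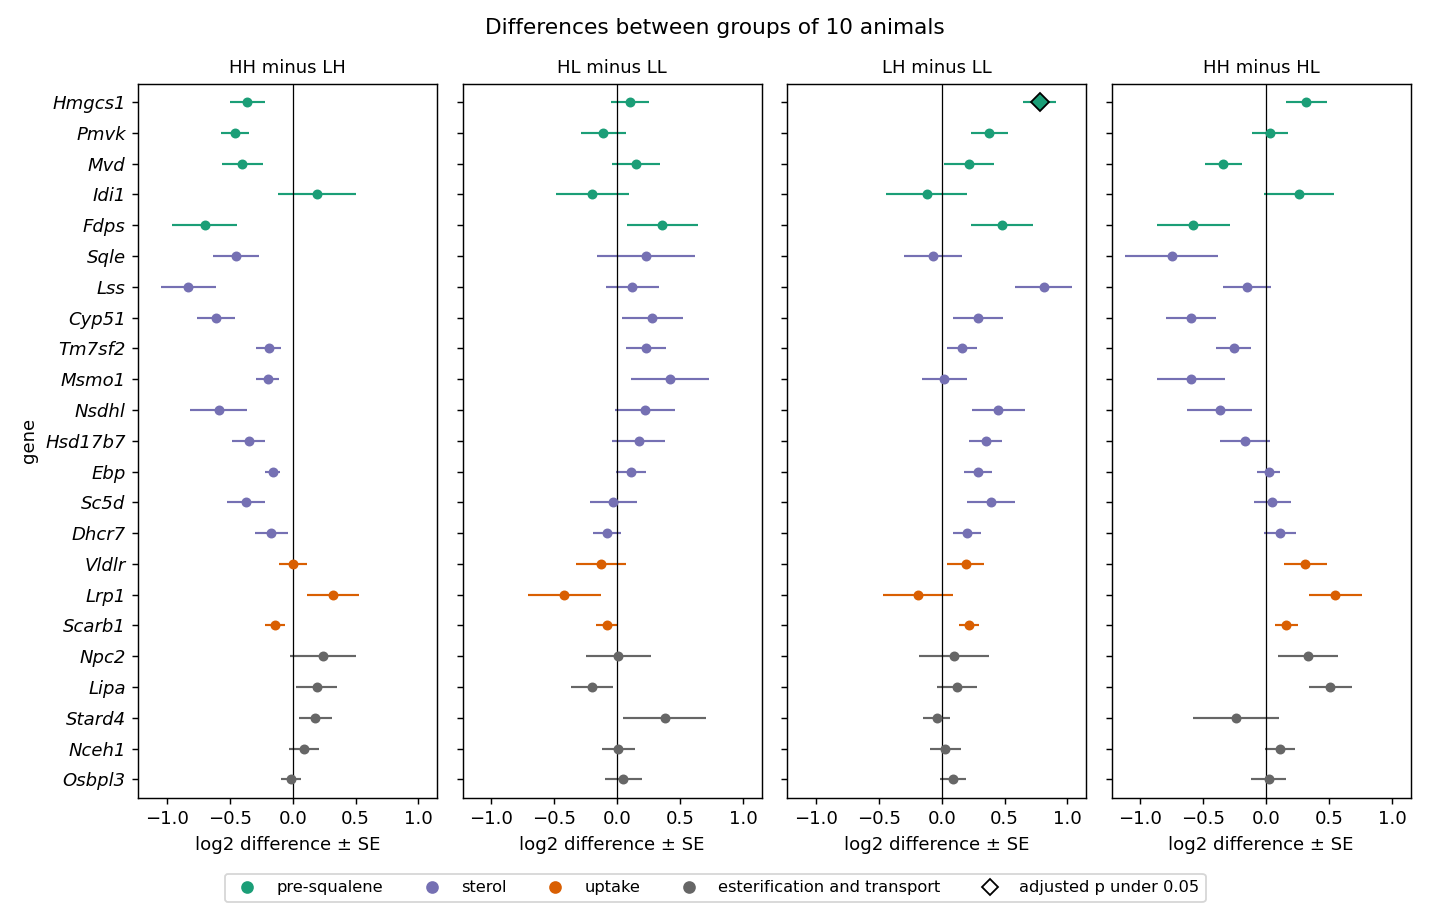
Log2 difference ± SE of the 23 members in the 4 pairwise comparisons of 10 animals each, coloured by role, with a diamond where the adjusted p was under 0.05. The 10 sterol genes lie left of 0 in HH minus LH, 9 of 10 lie right of 0 in LH minus LL, and Hmgcs1 in LH minus LL is the single diamond.

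Across the other pairs the sterol genes stood as follows, and pairs that share a group are not independent of each other. In LH against LL 9 of 10 were higher, with a median of 0.29 (0.18 without cage 4, and 10 of 10 with a median of 0.26 without the low-correlation arrays). Of the 23 members 7 had an unadjusted p under 0.05 there, against 12.8% of all probes. In HH against HL 7 of 10 sterol genes were lower, with a median of -0.21 (-0.11 without the low-correlation arrays, again 7 of 10), and 5 of 23 members had an unadjusted p under 0.05, against 16.9% of all probes. There 0 members were called, against 0.512% of all probes. In HL against LL 8 of 10 sterol genes were higher with a median of 0.20, which became 6 of 10 and 0.07 without the low-correlation arrays. No member was called there or had an unadjusted p under 0.05 (limma), against 0% and 1.08% of all probes.

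The interaction takes the post-weaning difference in offspring of HF dams (HH minus HL) and subtracts that in offspring of LF dams (LH minus LL), to ask whether the response to post-weaning HF differed with the maternal diet. All 10 sterol genes had a negative value, with a median of -0.57, led by Lss (-0.95 ± 0.31) and Cyp51 (-0.89 ± 0.29), and the median was -0.34 without the low-correlation arrays, again with 10 of 10 negative. None passed the test (limma, adjusted p = 0.935 for both), and 0% of all probes were called. At an unadjusted p under 0.05 there were 9 of 23 members, 8 of them negative, against 4.36% of all probes and 2.59% in that direction. Genes that vary together are not independent results here either. With array weights 13.4% of all probes were called, among them Fdps, Lss and Cyp51 as negative and Lrp1 as positive. With all arrays LH had the highest mean of the 4 groups for 7 of 10 sterol genes and 4 of 5 early genes, and HH the lowest for 6 of 10 sterol genes. Sqle, Tm7sf2 and Msmo1, highest in HL, were highest in LH without the low-correlation arrays (geometric means of 556, 142 and 770 units). Tm7sf2 and Msmo1 were then lowest in LL (120 and 659 units) and Sc5d in HH (195 units).

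Averaged over post-weaning diets, maternal HF gave lower values for 13 of 15 synthesis genes with a median of -0.13, and for 15 of 15 with a median of -0.18 without the low-correlation arrays. No member passed the test (limma, smallest adjusted p = 0.991), with 2 of 23 at an unadjusted p under 0.05, against 0% of all probes called and 3.46% at an unadjusted p under 0.05. Averaged over maternal diets, post-weaning HF gave 6 members with an unadjusted p under 0.05, against 24.3% of all probes. With all arrays 6 of 10 sterol genes were higher with post-weaning HF on average and 4 were lower (median 0.07, from -0.41 to 0.33). Without the low-correlation arrays all 10 were higher (median 0.09), and Ebp passed the test beside Hmgcs1 (0.18 ± 0.05, adjusted p = 0.0421, 0.0169 to 0.309 over the 14 alternatives that kept every cage). That made 2 of 23 members called, against 2.87% of all probes in the same setting. With cage as a fixed block, which uses differences within cages, 13.8% of all probes were called, and 4 of 23 members passed, Hmgcs1, Lss (0.66 ± 0.18), Sc5d (0.57 ± 0.15) and Vldlr (0.52 ± 0.13). Over those 14 alternatives the adjusted p of Lss, Sc5d and Vldlr there reached 0.489, 0.9 and 0.865.

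As a summary of level, the geometric mean of the 10 sterol genes in each animal ran between 286 and 468 units in HH with a median of 352, and between 351 and 646 in LH with a median of 445. It ran between 307 and 624 in HL with a median of 421, and between 299 and 604 in LL with a median of 339. The highest LL animal was animal 1 and the highest HL animal was animal 8. Without the low-correlation arrays the medians were 350 in HL and 336 in LL, and the highest values 484 in HL and 450 in LL. By cage, HH stood at 468 units (cage 10, 1 animal), 373, 328 and 326, against 635 (cage 4, 2 animals), 444, 427 and 417 in LH. Cage 10 of HH was thus above 3 of the 4 cages of LH, and the other 3 cages of HH were below all of them.

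Markers of other cells were set beside the difference between HH and LH. Marker means, here and below, take every listed gene with a probe, also those under the filter. These were 3 macrophage, 5 endothelial, 7 epididymis, 4 muscle and 4 steroid-making genes, and correlations with markers use only the genes that passed. The mean log2 level of adipocyte markers was 11.83 ± 0.13 in HH and 11.88 ± 0.12 in LH (SD, n = 10 each, 6 of 7 listed genes passed), and that of endothelial markers was 8.93 ± 0.18 and 8.97 ± 0.07 (4 of 5 passed). Macrophage markers stood at 10.00 ± 0.23 in HH and 9.86 ± 0.23 in LH (2 of 6 passed), and fibroblast markers at 11.46 ± 0.31 and 11.21 ± 0.23 (5 of 5). Epididymis and testis markers were at 7.51 ± 1.33 and 7.71 ± 1.37 in HH and at 6.99 ± 0.94 and 8.14 ± 1.67 in LH (3 of 8 and 5 of 6 passed). With the mean of both lists as a covariate the median of the sterol genes was -0.36. Skeletal muscle markers were at 8.50 ± 2.30 in HH and 7.10 ± 0.77 in LH (2 of 4 passed), with 11487 units in HH animal 10 and a median of 164 in HH and 119 in LH. Without cage 21, whose 3 HH animals included that one, the median of the sterol genes was -0.37. Markers of steroid-making cells were at 6.28 ± 0.16 in HH and 6.32 ± 0.22 in LH (1 of 4 passed), and Star and Hsd3b1 were below background on all arrays of both groups. The part of any of these cells in the difference was not tested. Within groups the mean of the sterol genes had correlations over 40 arrays of -0.48 with adipocyte, -0.56 with macrophage, -0.51 with endothelial, -0.28 with fibroblast, 0.41 with epididymis and 0.21 with testis markers. Over the 35 without low-correlation arrays these were -0.12, -0.17, -0.24, 0.03, 0.14 and -0.08.

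Animals of a cage on different diets were compared where a cage held both. In cages 10, 20 and 23, of HF fed dams, 5, 3 and 4 of 10 sterol genes were higher in HF fed than in LF fed animals, with medians of 0.00, -0.26 and -0.24. In cages 4 and 11, of LF fed dams, 10 of 10 were higher, with medians of 0.45 and 0.34. Each of cages 10, 20 and 23 held a low-correlation array, as did cage 4. Without them cage 10 had 10 of 10 higher (median 0.40, 1 animal on each diet), cage 23 had 2 of 10 (median -0.08), cage 4 had 10 of 10 (median 0.69) and cage 20 had no LF fed animal left. Hmgcs1 was higher in the HF fed animals of cages 10, 23, 4 and 11, by 0.43, 0.51, 1.43 and 0.72, and lower in cage 20 (-1.15), where HL animal 8 was the single LF fed animal.

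**Figure D3:**
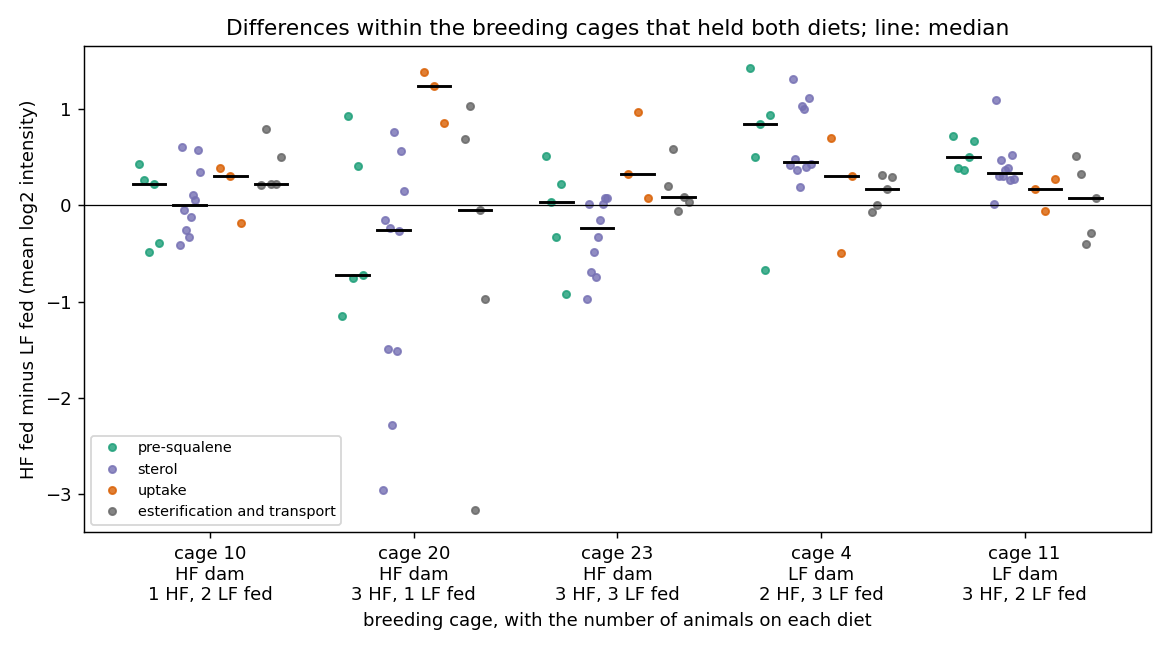
Mean log2 intensity of HF fed minus LF fed animals of the same breeding cage, 1 point per member, coloured by role, with the median as a line, for the 5 cages that held both diets. In the cages of HF fed dams 3 to 5 of 10 sterol genes lie above 0, where cage 20 rests on 1 LF fed animal, and in cages 4 and 11 of LF fed dams all 10 do.

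Members also varied together among animals of a group. Over the 35 arrays without low-correlation ones, 29 of the 45 pairs of sterol genes had a Pearson correlation above 0.5 (median 0.55, from 0.02 to 0.85), and over all 40 arrays 15 of 45 did (median 0.41). These values are deviations from group means, and animals of a cage share whatever their cage shares. Lss correlated with the other 9 sterol genes at 0.59 to 0.85 over 35 arrays, and the early genes Mvd and Fdps followed it at 0.86 and 0.78. Hmgcs1 was looser, at -0.14 to 0.60 with the 10 sterol genes. Idi1 stood outside the synthesis genes, at -0.22 to 0.40 with the sterol genes, and moved with Npc2 (0.87), Lrp1 (0.79) and Lipa (0.55). Uptake and sterol genes had a median correlation of -0.04.

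**Figure D4:**
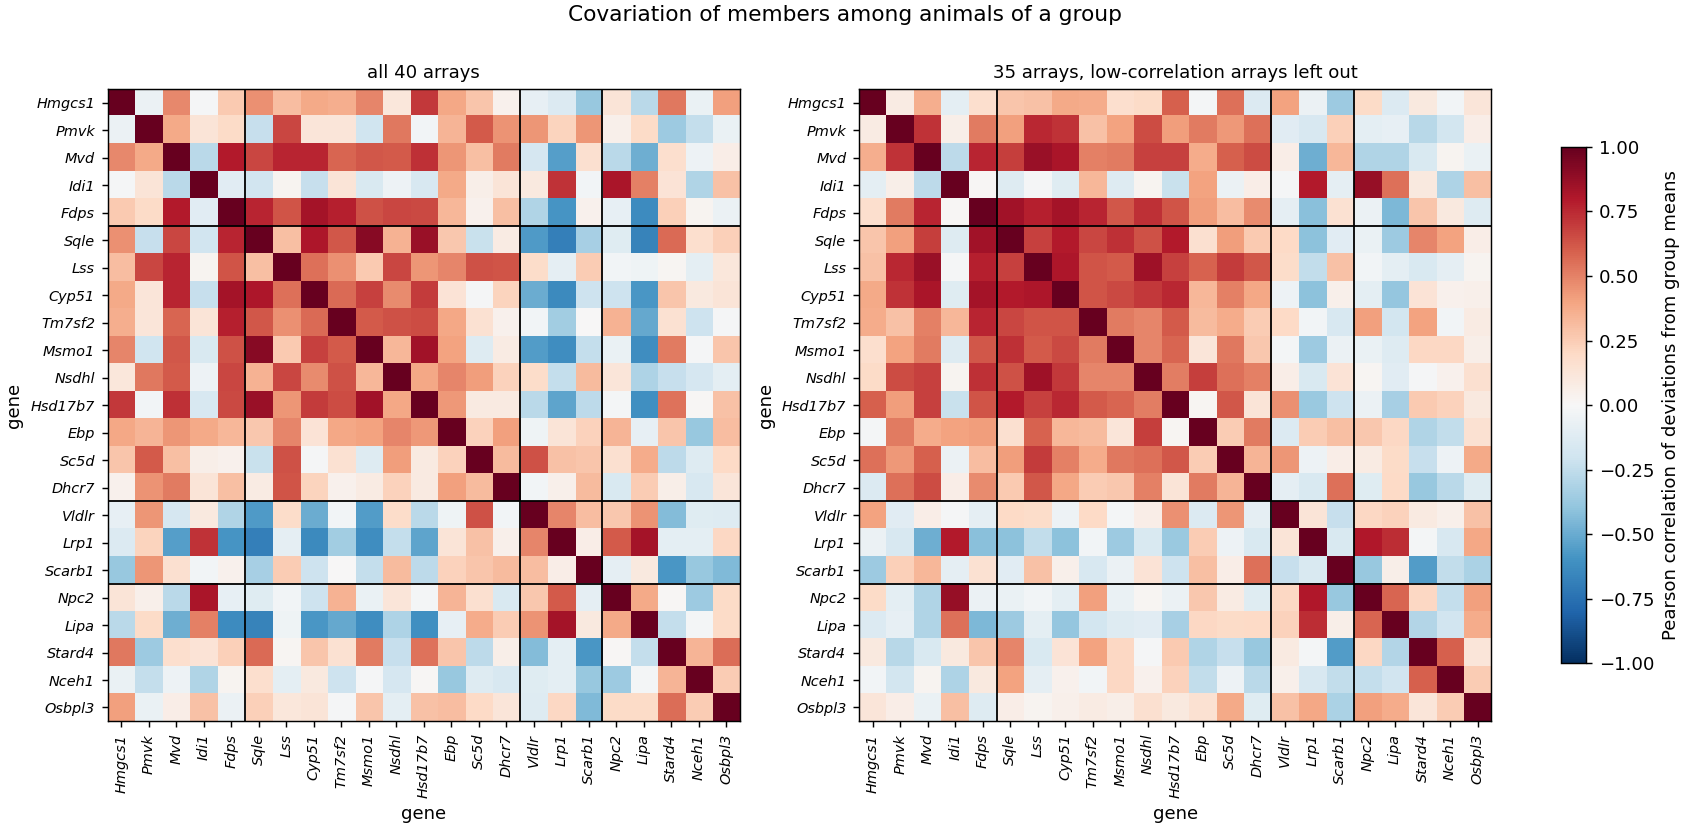
Pearson correlation of each pair of the 23 members over animals after group means were subtracted, for all 40 arrays and for the 35 without low-correlation arrays, with black lines between the roles. The block of sterol genes is mostly red (median 0.55 on the right), and Idi1 is red with Lrp1 and Npc2 instead.

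With all arrays, Vldlr and Scarb1 had their highest mean in LH and Lrp1 in HH, and all 3 uptake genes had their lowest in HL. Lrp1, a large endocytic receptor, had 220 units in the lowest HH animal, 441 at the median and 669 in the highest, and 220, 287 and 661 in LH. HL animals had 156, 322 and 474 units, and LL animals 156, 472 and 686. Groups overlapped in every pair. HH was above HL by 0.55 ± 0.21 (1.47-fold, adjusted p = 0.235) and HL was at -0.42 ± 0.29 against LL (adjusted p = 1). All 5 low-correlation arrays were among the 5 lowest of 40 for Lrp1, and without them HH was above HL by 0.24 ± 0.18 (adjusted p = 0.668). The geometric mean of Lrp1 was then highest in LL (469 units) and lowest in LH (330), with 412 in HH and 350 in HL. In LH against LL it was at -0.51 without them and at -0.19 ± 0.28 with all arrays. Scarb1, the HDL receptor that takes up cholesteryl ester, had 111, 123 and 169 units in HH and 115, 135 and 163 in LH, against 78.8, 117 and 133 in HL and 93.9, 121 and 143 in LL. It was higher with post-weaning HF by 0.22 ± 0.08 in LH over LL (adjusted p = 0.276), by 0.16 ± 0.09 in HH over HL (0.364) and by 0.19 ± 0.06 on average (0.0581), none past the threshold. The averaged value passed it without cage 6, without cage 10 or without cage 12, where 8.44%, 2.75% and 11.8% of all probes were called. It was 0.15 ± 0.06 without the low-correlation arrays (adjusted p = 0.178). Its values lay close above the background of 78.06 to 94.28 units, so its folds are understated. Vldlr, the VLDL receptor that works beside lipoprotein lipase, was at 0.25 ± 0.12 on average with post-weaning HF (adjusted p = 0.178) and at 0.05 ± 0.07 without the low-correlation arrays (adjusted p = 0.865), and HL animal 8 and LL animal 4 were its lowest, at 717 and 989 units. Within groups the mean of the 3 uptake genes correlated with adipocyte markers at 0.86 over 40 arrays and 0.50 over 35, and with macrophage markers at 0.73 and 0.64.

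Of the transport and esterification genes, Lipa, the lysosomal acid lipase that frees cholesterol from its esters, had 331, 513 and 762 units in HH and 316, 450 and 688 in LH. HL animals had 210, 422 and 465 units and LL animals 229, 458 and 505, and the lowest of each came from low-correlation arrays. HH was above HL by 0.51 ± 0.17 (1.42-fold, adjusted p = 0.18), and by 0.25 ± 0.13 without the low-correlation arrays (adjusted p = 0.475). Averaged over both maternal diets, Lipa was called without cage 9, where 6.66% of all probes were called. With low-correlation arrays included, macrophage markers had a mean log2 level of 10.00 in HH and 9.58 in HL, and fibroblast markers 11.46 and 11.07. Adipocyte (11.83 and 11.30) and endothelial markers (8.93 and 8.45) were lower in HL too. Epididymis (7.51 and 8.25) and testis markers (7.71 and 8.97) were higher there. Within groups the mean of the 5 transport and esterification genes correlated with macrophage and fibroblast markers at 0.32 and 0.32 over 40 arrays. Over 35 arrays these were 0.61 and 0.66. The 1 steroid-making gene that passed had 0.67 there, and the other lists lay between -0.36 (endothelial) and 0.03 (epididymis). The part of any of these cells in the difference was not tested. Stard4, a cytosolic sterol carrier, had 183, 286 and 473 units in HH and 196, 264 and 327 in LH, a difference of 0.18 ± 0.13 (adjusted p = 0.553). HL animals had 219, 266 and 2543 units, the highest again animal 8, and LL animals 189, 262 and 398. Npc2, which binds cholesterol in the lysosome, Nceh1, a cholesteryl ester hydrolase, and Osbpl3, an oxysterol-binding protein relative, had adjusted p of 0.702, 0.744 and 0.956 in HH against LH and 0.897, 0.934 and 0.727 in LH against LL. Npc2 spanned 2622 to 12016 units within LH alone. Osbpl5 was above background on 1 of 40 arrays.

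Other genes of the pathway were taken from a further list of 49, of which 38 had a probe and 30 passed. Of all probes 0.218% were called in LH against LL, 0.512% in HH against HL, 5.39% for the averaged post-weaning diet and 0% otherwise. None of the 30 was called in any of the 7 comparisons. At an unadjusted p under 0.05 there were 2 in HH against LH, 7 in LH against LL, 2 in HH against HL and 11 for the averaged post-weaning diet, against 12.5%, 12.8%, 16.9% and 24.3% of all probes. There was 1 in HL against LL and 1 for the averaged maternal diet (Fnta in both), and 2 in the interaction (Sorl1 and Osbpl8), against 1.08%, 3.46% and 4.36%. The genes with the smallest adjusted p, named after their values were seen, were Fnta, a subunit of protein farnesyl and geranylgeranyl transferases, in HH against LH (0.126) and Fntb, the partner of Fnta, in LH against LL (0.136). Sorl1, a sorting receptor, had 0.0806 in HH against HL, and Nus1, a subunit of the enzyme that makes dolichol, 0.0582 for the averaged diet. In HH against LH the median of the 30 was -0.01. Insig1, which holds SREBP in the endoplasmic reticulum and is one of its targets, had 545, 1174 and 2186 units in HH, 640, 964 and 2015 in LH, 520, 719 and 1912 in HL and 300, 973 and 1380 in LL. It was at 0.15 ± 0.25 in HH against LH (adjusted p = 0.823) and at 0.45 ± 0.20 with post-weaning HF on average (0.162), or 0.27 ± 0.20 without the low-correlation arrays (0.661). Srebf2, the gene of the SREBP that drives this pathway, had medians of 178, 196, 171 and 183 units in HH, LH, HL and LL, was at -0.06 ± 0.08 in HH against LH (adjusted p = 0.768), and reached 404 in HL animal 8 and 342 in LL animal 1.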

How the data were processed

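Total RNA of each pad was hybridised to a MouseRef-8 v2.0 bead array. Per the study's methods and notes (BeadStudio, version not given in the sources used here), the authors quantile-normalized the signals of the 40 arrays, and the deposited table holds linear intensity values without background subtraction, so folds of dim probes are understated. The log2 of these values was analysed with limma 3.58.1 in R 4.3.3. Probes above the 95th percentile of 1305 olfactory and vomeronasal receptor probes on at least 20 of 40 arrays were kept (14248 of 25697). Pairs were fitted on their own 20 arrays, the averaged diets and the interaction on all 40 (lmFit, eBayes with an intensity trend, two-sided). Benjamini-Hochberg adjustment ran over all probes kept, and an adjusted p under 0.05 was called. The study's methods name a Bayesian test with level-dependent variance. The number of arrays limits the precision. Full values were given for called members, the 2 members per role with the smallest p in a pair, and Hmgcs1, Lss, Msmo1, Insig1 and Srebf2. Members, lists and rules were chosen with earlier results of these data known. Alternatives covered cages (random or fixed block, means, left out in turn), low-correlation arrays (more than 3 scaled median absolute deviations below the median of 0.951), array weights, a marker covariate, centring, background, filters and variance. The procedure was tested on simulated data. Plots used matplotlib 3.10.9.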

Additional observations from a re-analysis of the deposited data

Results flagged for a closer look

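Values that stood far from the other 9 of their group were looked for in the 9 members described in full, over 36 sets of 10 animals, and chance flags about 1 in 20. There were 5 such values. Hmgcs1 was at 9435 units in HL animal 8, with 5024 as the next highest. Stard4 was at 2543 units in the same animal, next to 523. Msmo1 was at 2181 units in LL animal 1, next to 798, and Lipa was lowest in that animal, at 229 units against 338 for the next. Scarb1 was at 169 units in HH animal 6, next to 136. The first 4 came from low-correlation arrays, and the array of HH animal 6 was not one of them.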

How the results depend on the processing

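The count of called members was 1 in LH against LL, 1 for the averaged post-weaning diet and 0 elsewhere. In LH against LL it was 0 with cage means (0% of all probes called), 3 with array weights (2.08%) and 2 without low-correlation arrays and with cage as a random block (0.807%), an alternative chosen after seeing the data. For the averaged post-weaning diet it was 4 with cage as a fixed block (13.8%), 0 with cage means (0.337%), 2 without low-correlation arrays (2.87%), 3 with array weights (4.6%) and 3 without those arrays and with the random block (3.05%). In HH against HL it was 1 with the fixed block (3.31% of all probes, Vldlr, adjusted p = 0.0486, up to 0.869 over the 15 that kept every cage) and 1 with array weights (4.22%), in HH against LH 1 with array weights (1.1%), and in the interaction 4 with array weights (13.4%). With 1 cage left out at a time it ranged from 0 to 1 in LH against LL, HH against LH and HH against HL and from 1 to 2 for the averaged diet, where 0 to 0.94% and 1.26% to 11.8% of all probes were called. By animal number, no paired analysis was possible because the numbers only name animals. Cage mates were compared through the fixed block and the differences within the 5 cages that held both diets. The fixed block could not be fitted to comparisons of maternal diets, since each cage had 1 dam diet. Under background subtraction the median of the sterol genes in HH against LH was -0.50, and low signal limits the sizes of Dhcr7 and Scarb1, above background on 37 and 39 arrays. The cause of these changes was not tested.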

Other observations

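Among the 30 other pathway genes, 4 passed the test for the averaged post-weaning diet once the low-correlation arrays were left out, against 2.87% of all probes, and they are named here after their values were seen. Sorl1, a sorting receptor, was lower with post-weaning HF (-0.61 on the log2 scale, adjusted p = 0.0366), and in HH against HL it was at -0.98 ± 0.22 (adjusted p = 0.0302). With all arrays it had 202 units in the lowest HH animal, 303 at the median and 576 in the highest, against 384, 527 and 1039 in HL, and the difference was -0.80 ± 0.21 (adjusted p = 0.0806). Fnta, of protein prenylation, was lower by a small amount (-0.13, adjusted p = 0.0311). Ces1d, a carboxylesterase that is abundant in fat, was lower (-0.31, adjusted p = 0.0132) and Gramd1b, which carries cholesterol from the plasma membrane to the endoplasmic reticulum, was higher (0.27, adjusted p = 0.0244). With all 40 arrays the values of Ces1d and Gramd1b had the other sign, 0.04 (adjusted p = 0.901) and -0.06 (0.84). In LL animal 4 Gramd1b reached 1010 units and Ces1d had 9114 units, against LL medians of 264 and 25263.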
